A study of Mus musculus with 3 samples.

Results

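The 26 genes described here encode enzymes of cholesterol synthesis, the proteins that control them through the sterol regulatory element-binding proteins (SREBPs), and a sterol carrier. They were chosen by gene symbol, with earlier results of these data known, and all 26 were found among the 24119 genes that the deposited tables list. Cells build cholesterol from acetyl-CoA through mevalonate, isoprenoid diphosphates, squalene and lanosterol. SREBPs are transcription factors held in the endoplasmic reticulum membrane. When membrane sterol is scarce, Scap escorts them to the Golgi for cleavage and they turn on sterol synthesis genes, whereas the Insig proteins hold the complex back when sterol is plentiful. In pancreatic beta cells, membrane and granule cholesterol is known to bear on insulin secretion.

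RNA from the pancreatic islets of C57BL/6 males was sequenced as 1 library for each of 3 groups. ND is the diet labelled ND with DMSO by oral gavage, HFD_DMSO is HFD feeding with DMSO, and HFD_CGP is HFD feeding with CGP 57380, an inhibitor of the MNK kinases. Gavage lasted 1 month in all 3 groups, so every animal received either vehicle or compound. The labels add "4 month" without saying whether this is an age or a time on diet, and how many animals each library holds is not given in the sources used here. No difference below has a replicate check, and the intervals cover counting error only.

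The promoters of 22 of the 26 genes were matched in RefSeq (GRCm38.p6), as 30 windows of 300 bases that run from 250 bases before to 50 bases after a start site. SREBPs are known to act with NF-Y, which binds the CCAAT box, and motifs of both were searched on both strands. The letters CCAAT, or their reverse complement, were present in at least 1 window of 20 of the 22 genes, against 41.1% of the 27025 genes of the table. Counted by window, it was in 21 of 30, against 37.4% of all 32851. Of the 22 genes, the exact letters of the sterol regulatory core TCACNCCAC were in the window of Hmgcs1 alone, at -137 from the start, and in 1.44% of all genes. Fdps, Fdft1, Sqle and Stard4 had no window and were not searched. Variants of the core and sites outside the 300 bases were not searched either. CACGTG, an E-box that SREBPs can also bind, was in 5 of 22 genes and in 8.09% of all genes. A match is a description of these letters and not a measured binding site.
The windows of 5 genes are shown because the results turn on these genes: Hmgcs1 holds the sterol core, Idi1 and Mvd moved furthest in opposite directions, and Insig1 and Insig2 are the paralogs whose ratio differed between libraries. Each is read 5′ to 3′ on the gene's strand, with CCAAT boxes of either strand and the sterol core in capitals.
Hmgcs1, chr13:119690101-119690400 (+): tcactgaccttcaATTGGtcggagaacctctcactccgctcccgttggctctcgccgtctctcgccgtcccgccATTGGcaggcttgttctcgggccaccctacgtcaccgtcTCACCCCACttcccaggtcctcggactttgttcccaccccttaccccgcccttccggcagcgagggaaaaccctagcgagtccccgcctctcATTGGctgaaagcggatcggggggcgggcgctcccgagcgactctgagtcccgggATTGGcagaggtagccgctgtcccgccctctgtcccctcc
Idi1, chr13:8885356-8885655 (+): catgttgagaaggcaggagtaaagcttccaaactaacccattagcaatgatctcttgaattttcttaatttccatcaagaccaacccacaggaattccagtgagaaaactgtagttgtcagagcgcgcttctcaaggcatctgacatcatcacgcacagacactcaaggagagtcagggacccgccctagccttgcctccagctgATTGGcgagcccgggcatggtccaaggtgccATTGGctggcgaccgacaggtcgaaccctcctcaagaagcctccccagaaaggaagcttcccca
Mvd, chr8:122443373-122443672 (-): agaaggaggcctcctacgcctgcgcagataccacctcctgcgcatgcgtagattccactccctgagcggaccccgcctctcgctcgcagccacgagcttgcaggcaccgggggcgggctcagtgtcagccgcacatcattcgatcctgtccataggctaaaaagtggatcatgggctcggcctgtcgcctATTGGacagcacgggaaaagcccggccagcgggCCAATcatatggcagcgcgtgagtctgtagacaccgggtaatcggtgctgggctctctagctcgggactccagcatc
Insig1, chr5:28071162-28071461 (+): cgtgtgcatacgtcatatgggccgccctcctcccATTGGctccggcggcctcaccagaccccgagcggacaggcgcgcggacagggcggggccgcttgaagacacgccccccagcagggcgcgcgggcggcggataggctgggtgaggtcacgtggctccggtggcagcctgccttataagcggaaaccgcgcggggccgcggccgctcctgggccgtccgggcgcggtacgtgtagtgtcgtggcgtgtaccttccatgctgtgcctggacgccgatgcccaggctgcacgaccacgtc
Insig2, the window furthest upstream, chr1:121332540-121332839 (-): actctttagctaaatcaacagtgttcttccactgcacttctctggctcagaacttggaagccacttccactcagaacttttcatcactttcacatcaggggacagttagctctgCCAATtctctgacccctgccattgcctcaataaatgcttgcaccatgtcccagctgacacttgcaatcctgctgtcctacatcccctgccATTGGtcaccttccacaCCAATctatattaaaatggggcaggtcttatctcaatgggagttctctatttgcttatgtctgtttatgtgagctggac
Hmgcs1 carried 4 CCAAT boxes in its window, Idi1 2 and Mvd 2. The Insig2 window shown held 3, and the other 2 windows of Insig2 held 0. The Insig1 window held 1 CCAAT box, at -216 from the start, and 1 CACGTG at -101. Idi1 and Mvd were among the 20 of 22 matched genes with the box, and any link of the box to the direction of change was not tested.

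The libraries held 17129042 (ND), 16297589 (HFD_DMSO) and 17623817 reads (HFD_CGP), recovered as whole reads from the deposited values. The insulin genes Ins1 and Ins2 took 15.3% of reads in ND, 43.5% in HFD_DMSO and 19.1% in HFD_CGP, so levels are given as CPM, the reads of a gene relative to the library total, with TMM scaling, which assumes that most genes are equal between libraries. All 9 beta-cell markers were detected in every library. The 8 acinar markers summed to 11121 CPM in ND, 4531 in HFD_DMSO and 59.98 in HFD_CGP. The 7 stellate and fibroblast markers summed to 22.1, 442 and 105 CPM, the 4 alpha-cell markers to 21758, 5494 and 10748 CPM, and the 5 duct markers to 394, 788 and 490 CPM, with no marker of these lists at 0. These sums moved between the same libraries as the sterol genes, and their part in the results was not tested. In whole islets, fewer cells of a type and less RNA per cell cannot be told apart.

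All 26 genes were detected in all 3 libraries, and their reads ranged from 11 (Idi1 in HFD_DMSO) to 2390 (Srebf2 in HFD_CGP). Together they took 1034 CPM in ND, 775 in HFD_DMSO and 906 in HFD_CGP. Per kilobase of gene length, Insig1 had the highest level in ND (39.7 CPM per kb) and HFD_CGP (23.8), and Pmvk in HFD_DMSO (25.3), where its interval overlapped that of Insig1 (22.01). Idi1, Fdps and Hsd17b7 were the 3 lowest in both HFD libraries, at 0.25, 0.38 and 0.33 CPM per kb in HFD_DMSO. In ND the lowest were Fdps (0.30 CPM per kb), Hsd17b7 (1.22) and Dhcr7 (1.52). Of the 50-base words of Fdps and Idi1, 64.1% and 28.6% also occur in other genes, so the ranks of both are uncertain. Ordered by this level, neighbouring genes overlapped in their counting intervals in 20 of 25 cases in ND, 21 of 25 in HFD_DMSO and 19 of 25 in HFD_CGP, so most adjacent ranks are not resolved.

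**Figure D1:**
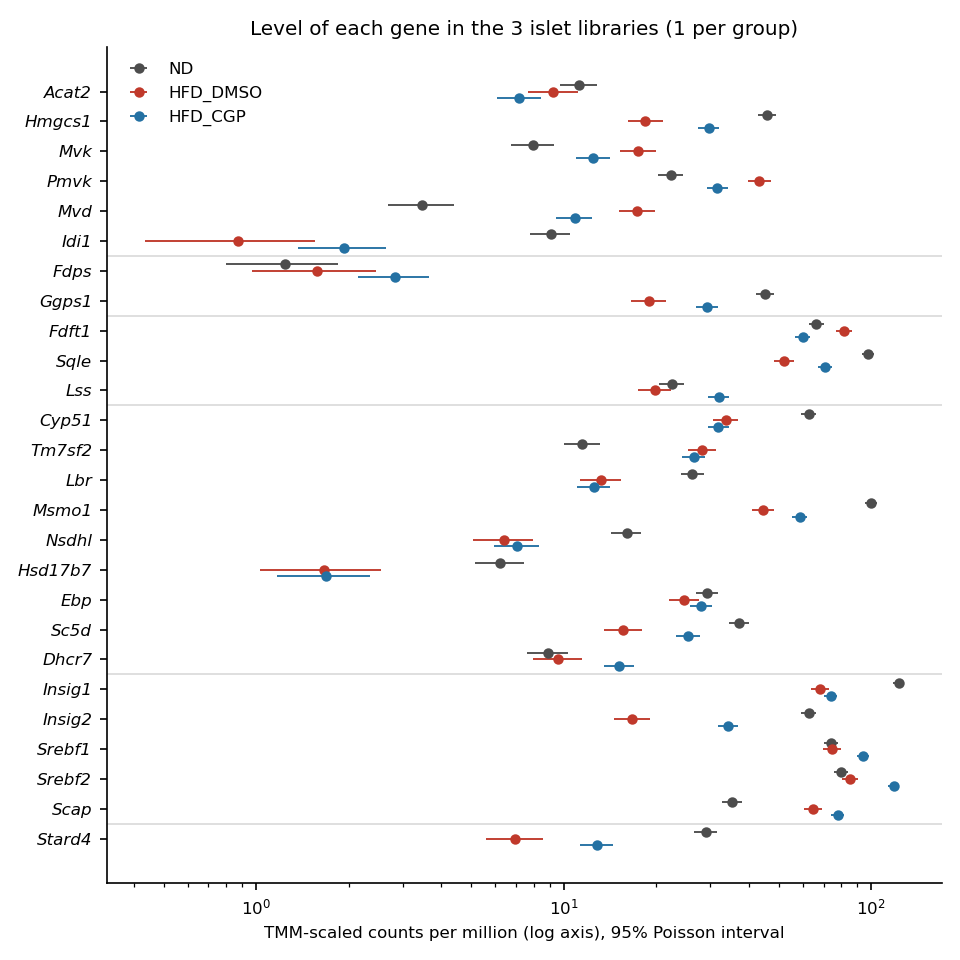
Level of each of the 26 genes in the 3 libraries, as TMM-scaled CPM on a log axis, with 95% Poisson intervals as bars and grey lines between functional groups. Idi1 and Stard4 stand far higher in ND than in either HFD library, whereas Mvd and Tm7sf2 stand lower in ND.

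The comparison of HFD_DMSO with ND asks how the sterol genes differ between high-fat-fed and ND-fed islets under vehicle. Of the 26 genes, 12 had an adjusted p under 0.05 in the authors' deposited table, which is a call here, with 9 lower and 3 higher in HFD_DMSO. Over all 22899 genes tested, 25.8% were called, 13.2% lower and 12.6% higher. Among the genes with at least 100 normalized counts the share called was 34.1%, and 11 of the 24 sterol genes at that level were called. The median log2 fold change of the 26 was -0.56, against -0.12 over all genes. Of the 26, 16 were negative and 10 positive, against 12123 and 10776 of all genes. When scaled by library totals instead, 1 was higher and 13 lower, against 6.99% and 24.8% of all genes. The calls rest on an assumed spread, since no group has a replicate: the deposited p-values were recomputed by an exact test with a fixed coefficient of variation of 0.2 between samples. At 0.4, 1 of the 26 genes was called from ND to HFD_DMSO (Idi1), against 2.3% of all genes, and none from HFD_DMSO to HFD_CGP (0.77%) or from ND to HFD_CGP (0.351%). "Rose" and "fell" below mean a call in the authors' deposited table, and log2 fold changes are on the scale of the normalized counts, with 95% exact binomial counting intervals.

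The 6 mevalonate genes split. Idi1, which isomerises isopentenyl diphosphate (chr13:8885501-8892451, + strand), fell furthest: it had 175 reads in ND, 11 in HFD_DMSO and 39 in HFD_CGP, or 9.07, 0.87 and 1.93 CPM. Its log2 fold change from ND to HFD_DMSO was -3.37 (-4.41 to -2.51). Of its 50-base words, 28.6% also occur in transcripts of other genes, Gm13502 above all, so the count is uncertain to that extent.
Mvd, the decarboxylase that makes isopentenyl diphosphate just before Idi1 acts (chr8:122433601-122443422, - strand), rose. It had 67 reads in ND, 219 in HFD_DMSO and 219 in HFD_CGP (3.47, 17.3 and 10.8 CPM), a log2 fold change of 2.32 (1.92 to 2.74) in HFD_DMSO. Adjacent enzymes of the pathway thus moved in opposite directions, and neither gene's HFD values overlapped its ND value.
Mevalonate kinase, Mvk, rose by 1.14 on the log2 scale (0.84 to 1.45), with 7.93, 17.5 and 12.5 CPM in ND, HFD_DMSO and HFD_CGP. It was the member just inside the call, with an adjusted p of 0.043 in the authors' deposited table. Hmgcs1, the cytosolic HMG-CoA synthase, fell, with 45.9, 18.4 and 29.6 CPM and a log2 fold change of -1.31 (-1.53 to -1.10). For both genes the HFD_CGP library lay between the other 2. Phosphomevalonate kinase, Pmvk, was at 22.3, 43.3 and 31.6 CPM and was not called (0.96). Acat2, which condenses acetyl-CoA, was at 11.2, 9.26 and 7.18 CPM and was not called (-0.27), and 40.7% of its 50-base words are shared, all with Acat3. Summed, the mevalonate genes were at 99.8, 107 and 93.7 CPM, so that the opposite changes nearly cancelled.

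At the branch point to longer isoprenoids, Ggps1, the geranylgeranyl diphosphate synthase, fell. Its level was 45.2, 18.9 and 29.3 CPM in the ND, HFD_DMSO and HFD_CGP libraries, a log2 fold change of -1.25 (-1.47 to -1.05) between the first pair. Fdps, the farnesyl diphosphate synthase, had 24, 20 and 57 reads. These are few, and 64.1% of its 50-base words occur in 8 other genes, so its level cannot be read closely.

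None of the 3 committed sterol genes was called from ND to HFD_DMSO, where 25.8% of all genes were called. Sqle, the squalene epoxidase and a known control point of the pathway, was at 97.5, 52.1 and 70.9 CPM in ND, HFD_DMSO and HFD_CGP, with a log2 fold change of -0.90 (-1.03 to -0.78) from ND to HFD_DMSO. Fdft1, the squalene synthase, was at 66.4, 81.8 and 59.9 CPM (0.30), and 30.7% of its words are shared with other genes. Ctsb holds 19.9% of them and had more reads (5713, 3557 and 5963), so the Fdft1 count is uncertain to that extent. Lss, which closes the sterol rings as lanosterol synthase, was at 22.4, 19.8 and 31.9 CPM (-0.18).

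Between lanosterol and cholesterol 4 of 9 genes fell and 1 rose, against 13.2% and 12.6% of all genes, and after the GC correction described below 1 was called lower and 0 higher. The demethylation genes are Msmo1, a methylsterol oxidase, Nsdhl, a sterol dehydrogenase, and Hsd17b7, a ketosteroid reductase that acts with them, and all 3 fell. Msmo1 was at 99.6 CPM in ND, 44.6 in HFD_DMSO and 58.6 in HFD_CGP, with a log2 fold change of -1.16 (-1.30 to -1.02). Nsdhl was at 16.0, 6.41 and 7.03 CPM (-1.32, -1.69 to -0.96). Hsd17b7 had 120, 21 and 34 reads (6.22, 1.66 and 1.68 CPM), a log2 fold change of -1.90 (-2.65 to -1.23). In all 3 genes both HFD libraries lay below ND, with no overlap of counting intervals.
Sc5d, a sterol desaturase, also fell (37.2, 15.6 and 25.4 CPM, -1.25, -1.49 to -1.02). Tm7sf2 and Lbr both reduce the same sterol double bond, and Lbr is also a lamin receptor of the inner nuclear membrane. Tm7sf2 rose from 11.5 CPM in ND to 28.3 in HFD_DMSO, and was at 26.4 in HFD_CGP. Its log2 fold change was 1.30 (1.05 to 1.54), and 19.5% of its 50-base words also occur in Vps51. Its deposited span ends at 6077197 on chromosome 19, past the GENCODE M21 end at 6068373. With strand use not given, reads of the 2 genes cannot be told apart there, which touches the Tm7sf2 count and its ratio to Lbr. Lbr was at 26.2, 13.2 and 12.5 CPM (-0.99), and with an adjusted p of 0.078 in the authors' deposited table it was the member just outside the call. The reductases therefore lay on opposite sides of 0, with the call for Lbr missed. Cyp51, the lanosterol demethylase, was at 62.7, 33.6 and 31.8 CPM and was not called (-0.90). Ebp, a sterol isomerase, was at 29.3, 24.7 and 28.0 CPM and was not called (-0.25). Dhcr7, which reduces a late cholesterol precursor, was at 8.86, 9.58 and 15.2 CPM and was not called (0.11).

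Among the 5 control genes only Insig2 was called from ND to HFD_DMSO, where 25.8% of all genes were called. Insig2 (chr1:121304353-121332589, - strand) was at 62.6 CPM in ND, 16.7 in HFD_DMSO and 34.3 in HFD_CGP, and fell by 1.91 on the log2 scale (interval -2.12 to -1.69). Insig1, itself a known SREBP target, was at 123, 68.1 and 73.8 CPM (-0.85, -0.97 to -0.74) and was not called. Neither SREBP gene was called. Srebf1 was at 74.0, 74.6 and 94.0 CPM (0.01) and Srebf2 at 79.8, 85.4 and 118 CPM (0.10). For both, the ND and HFD_DMSO intervals overlapped and the HFD_CGP interval lay above them. Neither was called from ND to HFD_CGP, and after the GC correction described below they were at -0.44 and -0.23 there. From ND to HFD_DMSO, Srebf1 turned to -0.53 and Srebf2 to -0.44 when library totals replaced TMM. Srebf1 turned to -0.003 with DESeq2 size factors. The direction of Srebf1 thus changed under both scalings and that of Srebf2 under library totals. Scap was at 35.3, 64.8 and 77.9 CPM and was not called (0.88). Stard4, a soluble sterol carrier, fell from 29.0 CPM in ND to 6.97 in HFD_DMSO and was at 12.8 in HFD_CGP, with a log2 fold change of -2.06 (-2.40 to -1.73).

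**Figure D2:**
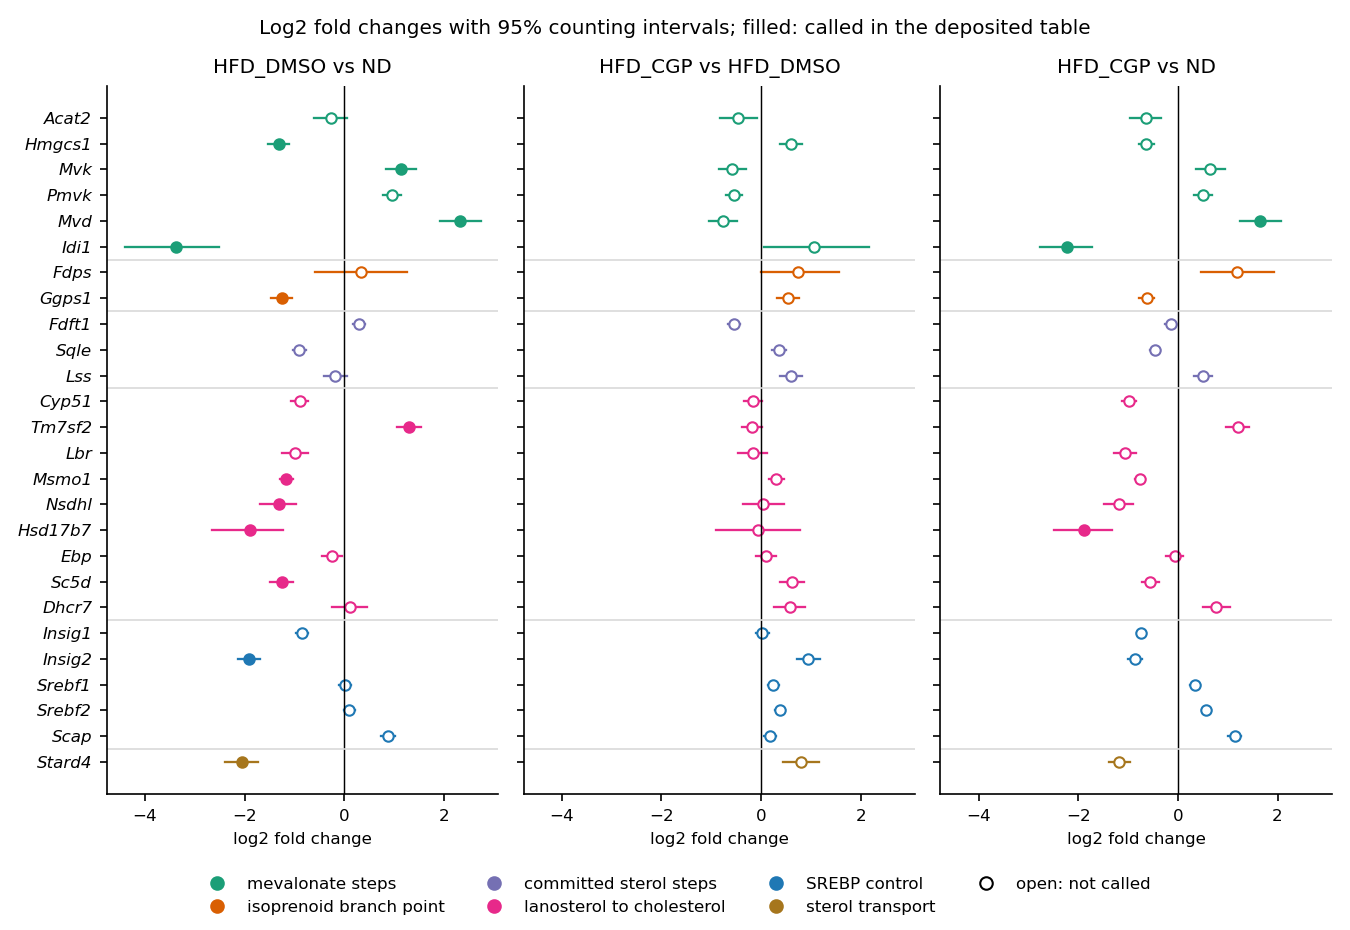
Log2 fold change of each gene in the 3 comparisons, with 95% counting intervals as lines, colours by functional group, and filled points for genes called in the authors' deposited table. HFD_DMSO against ND has 12 filled points, HFD_CGP against HFD_DMSO none, and HFD_CGP against ND 3.

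The fold changes of the sterol genes followed the GC content of their transcripts, which ran from 40.9% in Idi1 to 59.4% in Srebf2. From ND to HFD_DMSO all 14 genes under 50% GC were negative (median -1.25) and all 7 above 55% were positive (median 0.96), with 2 of the 5 between them negative. These bounds were set after the values were seen. Over the 26 genes the rank correlation of GC content with log2 fold change was 0.82, a description across genes of the same libraries. The trend was not particular to sterol genes: over the 16646 genes with at least 10 normalized counts the rank correlation was 0.44. Among all genes tested, the 11440 under 50% and the 5341 at 55% GC or more had medians of -0.70 and 0.68. The smoothed trend over the 16646 genes was -1.05 at 40% GC and 0.87 at 60%.

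With that trend subtracted, and edgeR's likelihood ratio test at the same assumed spread, 5 of the 26 genes were called from ND to HFD_DMSO, 4 lower and 1 higher, against 21.0% of all genes (8.54% lower, 12.5% higher). Idi1 was at -2.32, Stard4 at -1.67, Insig2 at -1.51 and Hsd17b7 at -1.38 on the log2 scale, and Mvd at 1.48. The same test without the correction gave 9 lower and 3 higher, where 29.9% of all genes were called. The 7 that lost the call were Hmgcs1 (-0.68), Ggps1 (-0.38), Msmo1 (-0.52), Nsdhl (-0.59), Sc5d (-0.49), Mvk (0.31) and Tm7sf2 (0.66). None of these 7 changed sign. The median of the 26 was -0.40, against -0.03 for all genes, and 18 of 26 were negative, against 11700 of the 22899 genes tested. After the correction Srebf1 and Srebf2 were at -0.81 and -0.74, and Lss (0.25) and Dhcr7 (-0.12) also changed sign, all 4 uncalled. The rank correlation with GC content over the 26 genes was still 0.46.

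**Figure D3:**
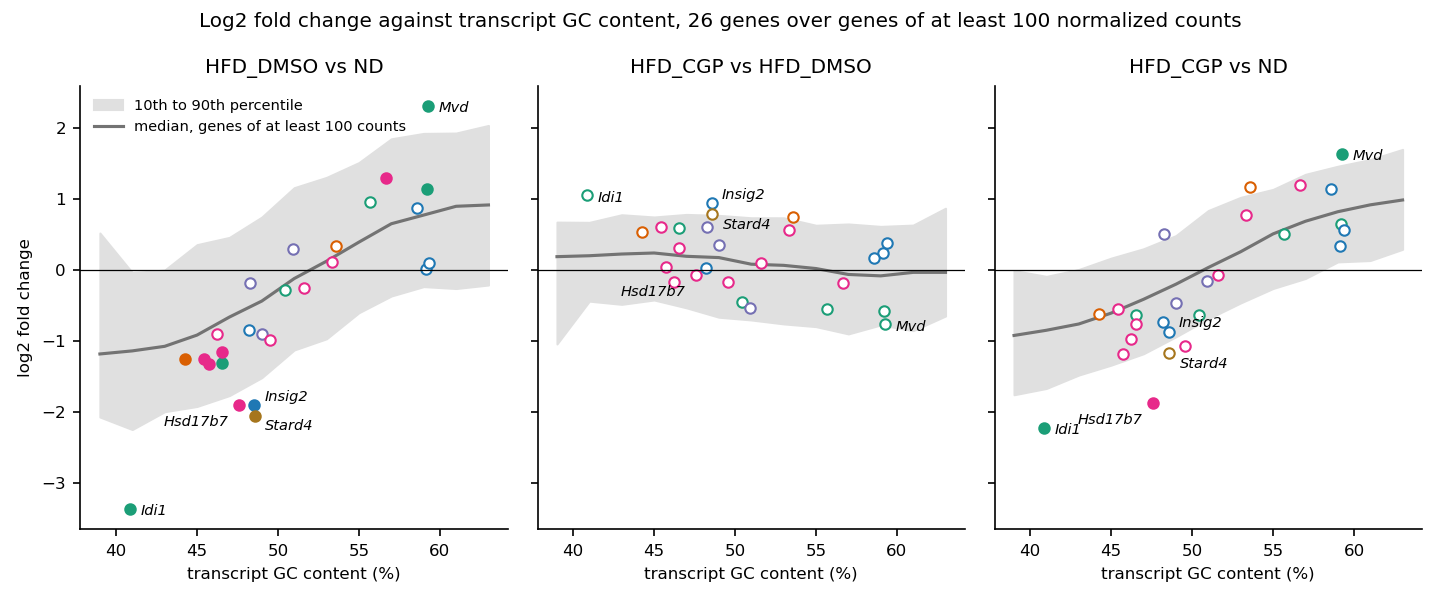
Log2 fold change against transcript GC content (%) for the 26 genes (points, coloured by functional group as in the plot of fold changes, filled where called in the authors' deposited table) over the median and the 10th to 90th percentile of the genes with at least 100 normalized counts, in bins of GC content. In both comparisons with ND the median of these genes climbs with GC content. Idi1, Hsd17b7 and Stard4 lie below the band in both, and Mvd above it.

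**Figure D4:**
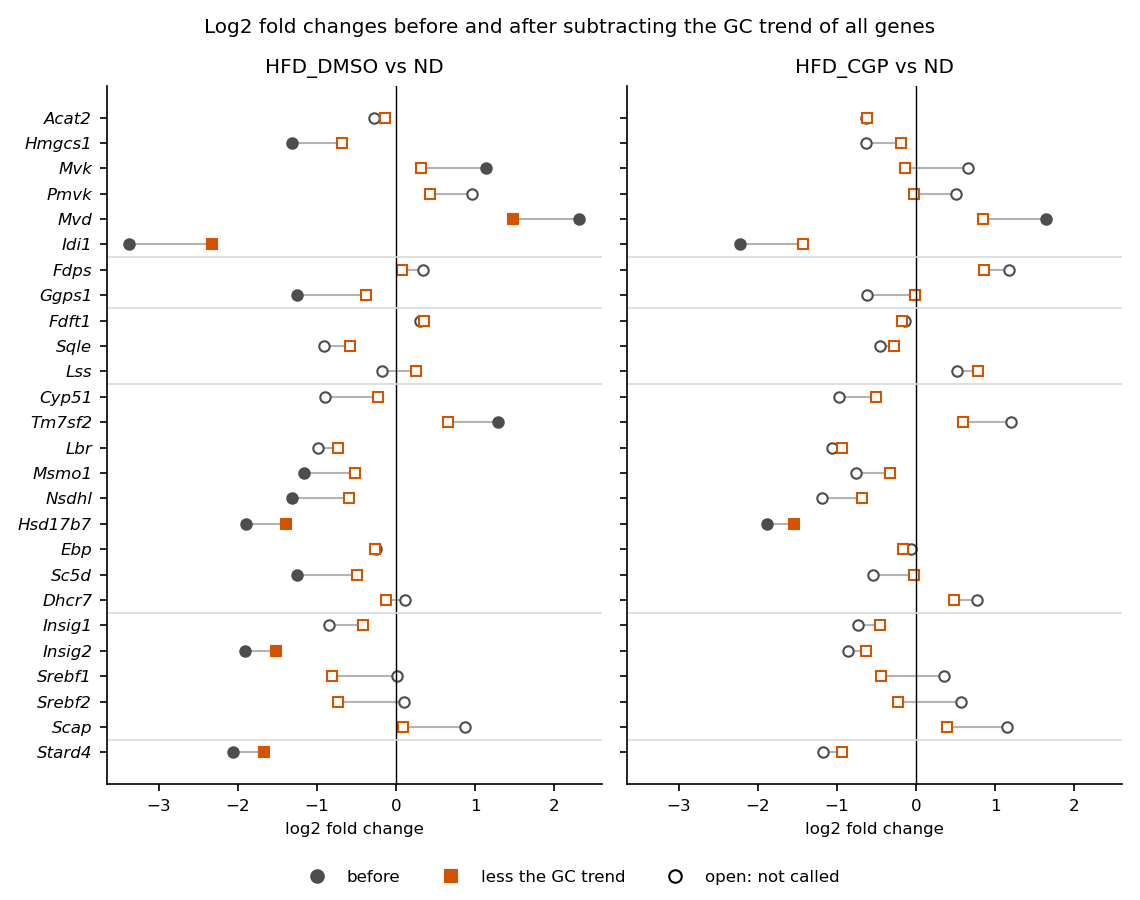
Log2 fold change of each gene before (circles) and after (squares) subtraction of the GC trend of all genes, in the 2 comparisons with ND. From ND to HFD_DMSO, filled squares remain for Idi1, Stard4, Insig2, Hsd17b7 and Mvd, and from ND to HFD_CGP for Hsd17b7.

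Ratios of reads within a library do not depend on scaling, and 4 pairs of related function were compared this way, chosen after their values were seen. Insig1 and Insig2 have nearly equal GC content (48.2% and 48.5%). Insig1 had 1.96 reads per Insig2 read in ND (1.83 to 2.10), 4.08 in HFD_DMSO (3.502 to 4.76) and 2.15 in HFD_CGP (1.96 to 2.35). HFD_DMSO thus stood apart from both other libraries beyond counting error, while the intervals of ND and HFD_CGP overlapped. The ratio of Mvd to Mvk, also matched in GC content (59.3% and 59.2%), was 0.438 in ND (0.324 to 0.587), 0.991 in HFD_DMSO (0.818 to 1.20) and 0.869 in HFD_CGP (0.722 to 1.05). Here the HFD libraries overlapped and ND stood apart. Tm7sf2 to Lbr gave 0.439 (0.373 to 0.515), 2.14 (1.77 to 2.58) and 2.11 (1.81 to 2.46), but these genes differ in GC content (56.7% and 49.5%). Srebf1 to Srebf2 gave 0.927 (0.862 to 0.997), 0.874 (0.800 to 0.955) and 0.794 (0.747 to 0.844), below 1 in every library. Its HFD_CGP interval lay below that of ND, and HFD_DMSO overlapped both.

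**Figure D5:**
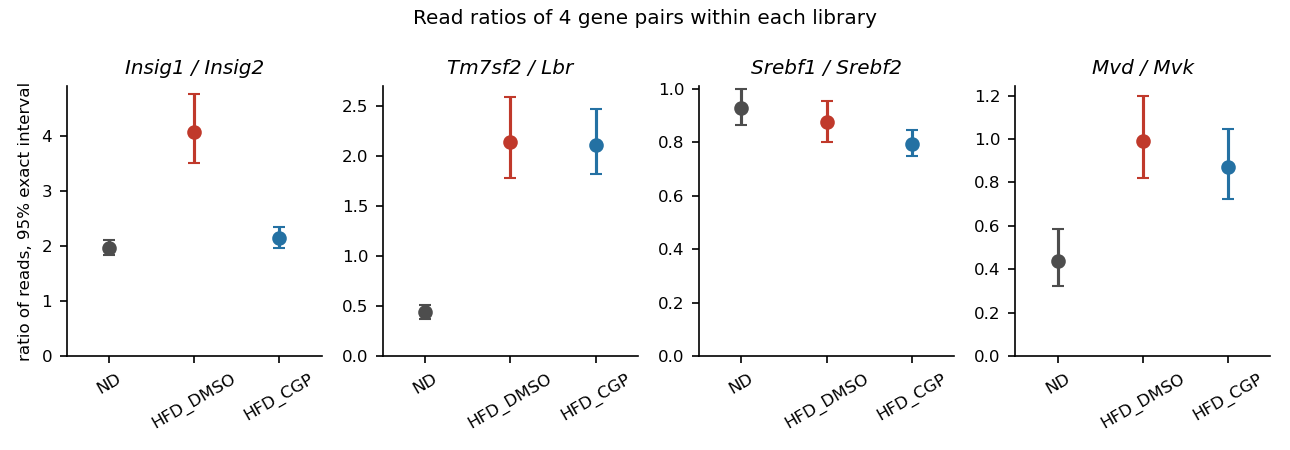
Ratio of the reads of 4 gene pairs within each library, with 95% exact intervals, on axes that start at 0. Insig1 to Insig2 is high in HFD_DMSO alone (4.08), whereas Tm7sf2 to Lbr and Mvd to Mvk are low in ND alone (0.439 and 0.438).

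The comparison of HFD_CGP with HFD_DMSO asks what the compound changed under high-fat feeding. None of the 26 genes was called in the authors' deposited table, where 6.35% of 22208 genes were (4.95% lower, 1.4% higher). Insig2 was at 0.95 on the log2 scale (0.73 to 1.18), also without a call. Likewise, edgeR's likelihood ratio test called 0 of the 26 both without the GC correction (9.19% of all genes) and with it (9.12%). The median was 0.21 against 0.04 for all genes, with 17 positive and 9 negative, against 11566 and 10642 of all genes. Several genes that fell from ND to HFD_DMSO had positive values here. Idi1 was at 1.05 (0.07 to 2.17), Stard4 at 0.79, Sc5d at 0.61, Hmgcs1 at 0.59 and Ggps1 at 0.54. Mvd, which rose, was at -0.76, and Mvk at -0.58. Both comparisons use the HFD_DMSO library, so opposite signs are not independent of each other. Nsdhl (0.04) and Hsd17b7 (-0.07) were close to 0. Scaled by library totals, 7 genes were called higher and none lower, against 14.4% and 3.06% of all genes.

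From ND to HFD_CGP, 3 of the 26 genes were called in the authors' deposited table, against 8.93% of 23063 genes (4.36% lower, 4.57% higher). Idi1 fell (-2.23, -2.77 to -1.72), Hsd17b7 fell (-1.88, -2.48 to -1.32) and Mvd rose (1.64, 1.24 to 2.06). The median was -0.50 against -0.06 for all genes, with 16 of 26 negative, against 12117 of the 23063 genes. Tm7sf2 (1.20), Scap (1.14), Nsdhl (-1.19), Stard4 (-1.17) and Lbr (-1.06) were not called, and Tm7sf2 was the nearest to the threshold, with an adjusted p of 0.056 in the authors' deposited table. The GC trend was present here too: 13 of 14 genes under 50% GC were negative and 7 of 7 above 55% positive. After its subtraction, in edgeR's likelihood ratio test, Hsd17b7 was the 1 gene called (-1.54), against 5.16% of all genes. Without the correction the same test called 4 of the 26, Tm7sf2 beside the 3 above, and 11.7% of all genes. With the correction Idi1 was at -1.43 and Mvd at 0.84, and neither was called. Scaling by library totals and by DESeq2 size factors each gave 4 calls, against 9.12% and 9.33% of all genes.

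The remaining 4 lists describe genes around the pathway and were also chosen with earlier results of these data known. Of 11 genes that process SREBPs or degrade sterol-regulated proteins, 4 fell from ND to HFD_DMSO and none rose (median -0.77). For all 4 lists the shares over all genes are 13.2% lower and 12.6% higher, with a median of -0.12. Mbtps2, the protease that makes the second SREBP cut, was at -1.80, and Erlin1, Rnf139 and Rnf145, which take part in sterol-regulated degradation, were at -1.46, -1.44 and -1.16. After the GC correction only Erlin1 of this list was called (-1.16). The shares over all genes with that correction, for all 4 lists, were 8.54% lower and 12.5% higher.
Of 25 genes of cholesterol transport, esterification, efflux and oxysterols, 6 rose and 4 fell (median 0.06), and the 4 that fell are close to the 13.2% of all genes. Ch25h, a cholesterol hydroxylase, had 1 read in ND, 17 in HFD_DMSO and 17 in HFD_CGP, and rose in the table. The lipoprotein receptor genes Vldlr (-1.54) and Lrp8 (-1.18) fell, and these 3 genes were also called after the GC correction. With the correction 2 of the 25 were called higher and 2 lower, which includes a gene not called before it. Nr1h3 (1.71) and Nr1h2 (1.26), the oxysterol-sensing liver X receptors, Gramd1a (1.25), Cyp27a1 (1.36) and Cyp46a1 (1.25) rose, whereas the cholesterol exporter Abca1 (-1.16) and Gramd1c (-1.71) fell, without a call after the correction. Of 15 isoprenoid and prenylation genes 1 rose and 2 fell (median -0.17). Dhdds, which extends isoprenoid chains, was at 1.20, Pggt1b, a subunit of an enzyme that prenylates proteins, at -1.89, and Zmpste24, a protease of prenylated proteins, at -1.49. These 3 of 15 are a smaller share than the 25.8% of all genes called, and after the GC correction only Pggt1b of the 3 was called.
Of 16 fatty acid genes under SREBP control, 4 rose and 2 fell (median 0.51). Acacb (2.34), Scd1 (1.92), Fads2 (1.69) and Thrsp (1.35) rose, and Elovl5 (-1.89) and Acly (-1.45) fell, and of these 6 Thrsp alone was not called after the GC correction. The 2 that fell are close to the 13.2% of all genes. With the correction 4 of the 16 were called higher and 2 lower, which includes a gene not called before it. From HFD_DMSO to HFD_CGP, Fads2 (-2.31) and Scd1 (-1.68) fell, and no gene of the other 3 lists was called, where 6.35% of all genes were. After the GC correction 1 of the 25 transport genes was called lower there, against 7.21% of all genes. From ND to HFD_CGP, Ch25h (3.87), Dhdds (1.24), Acacb (2.10) and Fads1 (1.25) rose, and Rnf139 (-1.23), Pggt1b (-2.09) and Zmpste24 (-1.38) fell, where 8.93% of all genes were called. Of these 7, Ch25h and Pggt1b were also called after the GC correction, with which 5.16% of all genes were called.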

How the data were processed

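RNA-seq was analysed in 3 islet libraries, 1 per group. The group columns are a signal, gene counts that the authors divided by 1 factor per library, with a log2 fold change, a p-value and an adjusted p for each pair of groups, per the file headers. The submitters' processing notes name DESeq2 1.10.1. The deposited p-values were nevertheless reproduced closely by edgeR's exact test, as described below. The aligner, counter, strand use and genome build were not given in the sources used here. Tables were scaled pair by pair, so calls come from each pair's own table.

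Whole reads were recovered from the step of each column. Between 97.9% and 100% of values lay within 0.1 of a whole number, as did 100% of those under 1000 reads. Libraries held 16297589 to 17623817 reads. A count of 3 reads, the limit that a count of 0 allows, were worth 0.149 to 0.237 CPM. Fold changes were recomputed from these reads with edgeR 4.0.16 (R 4.3.3), TMM factors and an exact test with dispersion 0.04, a coefficient of variation of 0.2, for genes with at least 2 reads over the pair. They differed from the deposited log2 values by at most 0.00023, and calls differed for 1 gene in 1 table and for none of the 26. Since no spread between animals was measured, the p-values rest on that assumed value. Levels per kilobase used the deposited gene length, and 25 of 26 genes had the coordinates of GENCODE M21 (GRCm38). Transcript GC content came from GENCODE M21, and its trend over genes with at least 10 normalized counts was fitted by loess with a span of 0.5. Shared sequence was counted as 50-base words of each gene's coding transcripts found in other genes. Intervals are 95% exact Poisson or binomial (scipy 1.17.1) and cover counting error only. The scripts were run on reads simulated with the same dispersion of 0.04, which cannot check that assumed value.

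All 26 genes are named, and other genes only in lists, as cell markers or where a count was small. The 26 genes and all lists were chosen with earlier results of these data known. Alternatives were a coefficient of variation of 0.4, library totals, DESeq2 1.42.0 size factors, the GC correction, a pseudocount of 10, and genes with at least 100 normalized counts. Leaving out genes that share over 25% of their words was added after the data were seen. The deposited lists that repeat called rows were not used.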

Additional observations from a re-analysis of the deposited data

How the results depend on the processing

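Each group has 1 library, so no replicate could be left out. No paired analysis was possible because each group has 1 library. From ND to HFD_DMSO the 12 calls (3 higher, 9 lower) came to 1 at a coefficient of variation of 0.4 and to 5 with the GC correction, and to between 11 and 14 under the other settings. The median of -0.56 was -1.10 with library totals and -0.87 without the 4 genes that share over 25% of their words. Library totals shifted the median of all genes by -0.54 in this comparison, by 0.65 from HFD_DMSO to HFD_CGP and by 0.02 from ND to HFD_CGP. From HFD_DMSO to HFD_CGP the 0 calls came to 7 with library totals, where the median of 0.21 was 0.86. From ND to HFD_CGP the 3 calls came to 0 at a coefficient of variation of 0.4 and to 1 with the GC correction (4 in the same likelihood ratio test without it), where the median of -0.50 was -0.21, and they were 4 (2 higher, 2 lower) with library totals and with DESeq2 size factors.

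Single genes that changed sign were all uncalled. With library totals these were Fdps (-0.19), Fdft1 (-0.24), Dhcr7 (-0.43), Srebf1 (-0.53) and Srebf2 (-0.44) from ND to HFD_DMSO. From HFD_DMSO to HFD_CGP they were Acat2 (0.20), Mvk (0.077), Pmvk (0.11), Fdft1 (0.11), Cyp51 (0.48), Tm7sf2 (0.47), Lbr (0.49) and Hsd17b7 (0.58). With the GC correction they were Lss (0.25), Dhcr7 (-0.12), Srebf1 (-0.81) and Srebf2 (-0.74) from ND to HFD_DMSO, Nsdhl (-0.10) and Insig1 (-0.086) from HFD_DMSO to HFD_CGP, and Mvk (-0.14), Pmvk (-0.026), Srebf1 (-0.44) and Srebf2 (-0.23) from ND to HFD_CGP. DESeq2 size factors turned Srebf1 to -0.003 from ND to HFD_DMSO. The cause of these moves was not tested. The values of Idi1 in HFD_DMSO (11 reads) and of Fdps in all libraries (20 to 57 reads) rest on few reads. Of their 50-base words, 28.6% and 64.1% also occur in other genes.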
